A study of Mus musculus with 7 samples.

Results

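The interferon response and antigen presentation genes of the mouse were taken from the bulk count table by their symbols: the interferon receptors (Ifnar1, Ifnar2, Ifngr1, Ifngr2), Stat2 and other transcription factors of the pathway, among them the interferon regulatory factors (Irf), Isg15, Isg20, Bst2, every Ifi, Ifit, Ifitm and Oas gene, the H2- genes of the major histocompatibility complex (MHC), B2m, the peptide transporter genes Tap1 and Tap2, and the inducible proteasome genes Psmb8, Psmb9 and Psmb10. The symbols gave 114 genes of 50600 table entries. Of these, 101 had at least 1 count in a library and 57 passed the filter on low counts and were tested. By role they comprised 4 receptors, 11 transcription factors, 48 interferon-induced effectors, 5 antigen processing genes, 33 class I chains, 12 class II chains and exchange factors, and H2-Ke6, which lies in the MHC but encodes a steroid dehydrogenase. The single-cell table lists 52 of the members.

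The study measured RNA in neural stem and progenitor cell (NSPC) cultures grown from the dentate gyrus (DG), the hippocampal region in which neurons are born in adult mice, and in whole DG. Bulk libraries came from 4 separate primary cultures (F1 and F2 from females, M1 and M2 from males) of C57Bl6J mice aged 6 to 8 weeks, used at passages 6 to 15. The cells were kept on poly-d-lysine and laminin in neurobasal A medium with B27 and with EGF and bFGF, both mitogens at 20 ng/ml. The whole DG libraries came from 2 C57Bl6J mice aged 7 to 9 weeks (female F1, male M2), untreated as far as the labels say. A single-cell library held 3 cultures, 2 female and 1 male, of mice aged 6 to 9 weeks, pooled before sequencing and not separable by culture. No group carried a transgene or a deletion, and no interferon was added to any of them as far as the labels say.

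Total counts ranged from 9917697 to 11747408 in the cultures and were 16676618 and 17351636 in whole DG. Cultures were made into libraries with a SMART-Seq HT kit and whole DG with a directional NEBNext kit, so kit and group cannot be told apart. Of 14 NSPC markers, 10 were higher and 4 were lower in the cultures (100% called, against 77.3% of all tested genes). The 18 microglia and macrophage markers, which make up 19 table entries since Itgam has 2, summed to between 39.9 and 58.8 CPM (counts per 1000000) in the cultures, against 448 and 465 CPM in whole DG, with C1qa, Tyrobp, Aif1 and Fcer1g at 0 counts in every culture. Endothelial markers summed to between 4.88 and 10.3 CPM in the cultures, against 193 and 202 CPM in whole DG. Lower values in a culture can mean fewer cells of a type or less RNA per cell, which bulk libraries cannot tell apart. Culture M1 stood apart from the other cultures in these genes: it was the highest of the 4 cultures for 38 of the 57 tested members (66.7%) and for 27.8% of all 18088 tested genes. Counts of called members are therefore also given without M1, as are the log2 differences of named genes that moved by over 1.5 times in fold without it.

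Type I interferons bind the receptor made of Ifnar1 and Ifnar2, and the kinases Jak1 and Tyk2 on it activate a complex that holds Stat2 and Irf9 and binds the interferon-stimulated response element (ISRE) in promoters of antiviral genes. Interferon gamma binds the receptor made of Ifngr1 and Ifngr2 and acts through the gamma-activated site (GAS). MHC class I chains show peptides at the surface of most cells together with B2m. The peptides are cut by the proteasome and carried into the endoplasmic reticulum by Tap1 and Tap2, and class I genes are kept low in most brain cells. Class II chains are made by professional antigen-presenting cells, which in the brain are mainly microglia and macrophages.

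The ISRE is visible in the RefSeq promoter sequences of these genes (build GRCm38.p6), of which 89 of the 114 members have an entry. The 250 bases before the transcript start are shown for genes on which the results turn, with every match to the ISRE core, which is GAAA, any 2 bases and GAAA, on either strand, in capitals. Isg15, the ubiquitin-like modifier, and Ifit1, an RNA-binding antiviral protein, are shown because they varied widely between cultures:
Isg15: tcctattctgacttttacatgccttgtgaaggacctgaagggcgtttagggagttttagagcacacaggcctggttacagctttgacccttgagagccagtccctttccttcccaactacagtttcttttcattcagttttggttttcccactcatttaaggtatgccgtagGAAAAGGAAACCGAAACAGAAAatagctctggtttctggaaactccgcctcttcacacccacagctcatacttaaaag
Ifit1: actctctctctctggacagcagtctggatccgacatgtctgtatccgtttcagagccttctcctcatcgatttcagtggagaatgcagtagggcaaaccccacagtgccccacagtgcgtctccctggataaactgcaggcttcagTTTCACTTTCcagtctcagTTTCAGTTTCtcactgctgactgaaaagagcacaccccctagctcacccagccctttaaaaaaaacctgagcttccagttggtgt
Isg15 held 3 overlapping cores whose first bases lie 78, 72 and 66 bases before the start, and Ifit1 held 2 cores on the opposite strand that begin 104 and 85 bases before it.

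Bst2, which tethers enveloped virus at the cell surface, Ifitm2, which blocks virus entry at endosomes, and B2m are shown as members higher in cultures that hold a core:
Bst2: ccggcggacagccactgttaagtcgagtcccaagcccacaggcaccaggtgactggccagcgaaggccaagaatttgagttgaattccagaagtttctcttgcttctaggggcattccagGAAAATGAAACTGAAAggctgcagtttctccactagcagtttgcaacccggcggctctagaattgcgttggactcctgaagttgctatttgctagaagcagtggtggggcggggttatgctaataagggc
Ifitm2: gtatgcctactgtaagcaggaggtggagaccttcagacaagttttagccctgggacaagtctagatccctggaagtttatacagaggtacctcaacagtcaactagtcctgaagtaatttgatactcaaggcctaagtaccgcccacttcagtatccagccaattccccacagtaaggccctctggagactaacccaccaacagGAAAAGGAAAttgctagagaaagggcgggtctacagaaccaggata
B2m: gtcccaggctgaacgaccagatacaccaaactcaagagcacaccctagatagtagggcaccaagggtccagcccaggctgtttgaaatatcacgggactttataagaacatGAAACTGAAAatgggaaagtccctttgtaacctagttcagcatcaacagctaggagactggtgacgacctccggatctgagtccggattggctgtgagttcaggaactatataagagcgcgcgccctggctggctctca
Tap1 is shown as a member higher in cultures with no core in this window:
Tap1: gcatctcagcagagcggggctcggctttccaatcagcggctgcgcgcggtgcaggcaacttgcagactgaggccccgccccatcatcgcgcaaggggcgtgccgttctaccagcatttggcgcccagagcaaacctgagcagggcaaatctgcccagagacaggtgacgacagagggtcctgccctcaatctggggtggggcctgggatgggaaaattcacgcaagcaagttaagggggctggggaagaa
Bst2 held 2 overlapping cores that begin 130 and 124 bases before the start, and a GAS match (TTCNNNGAA) from 136 to 128 bases before it overlaps the first of them. Ifitm2 held 1 core 46 bases and B2m 1 core 139 bases before the start. These matches describe letters in the window, not bound sites.

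In windows of 250 bases before and 50 bases after the start, the ISRE core occurred in 27 of 103 windows of members (26.2%), against 1131 of 32851 windows of all genes (3.44%). It occurred in 22 of 47 windows of interferon-induced effectors (46.8%), 3 of 26 of class I chains (11.5%) and 2 of 12 of transcription factors (16.7%). No core was found in the windows of the receptors, of antigen processing genes or of class II genes. Among tested members, 13 of 33 windows (39.4%) of genes whose highest culture was M1 held a core, and 3 of 24 windows (12.5%) of the other tested members. These windows belong to 29 and 18 genes. The split was made from these same data and goes along with role, since 15 of 20 tested effectors were highest in M1. The part of role in it was not tested. The GAS match occurred in 17 of 103 windows of members (16.5%) and in 8.30% of all windows.

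**Figure D1:**
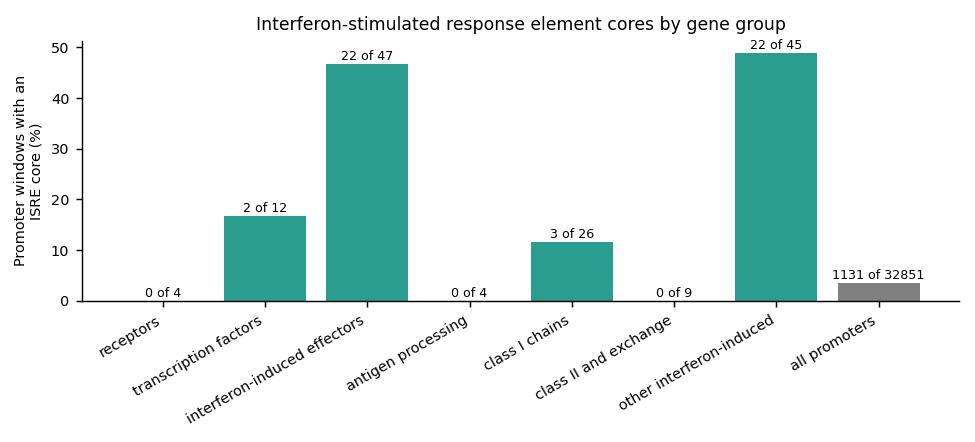
Share of RefSeq promoter windows (y axis, percent) that hold an ISRE core on either strand, by gene group (x axis), with the number of windows above each bar. Effectors and the list of other interferon-induced genes stand at 46.8% and 48.9%, above the 3.44% of all promoters.

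Between cultures and whole DG, 19 of the 57 tested members were higher and 8 were lower in the cultures (edgeR quasi-likelihood test, adjusted p under 0.05). Thus 47.4% of tested members were called, against 77.3% of all genes tested. In the upward direction 33.3% of members were called, against a background of 35.6%, and in the downward direction 14.0% against 41.7%. The median log2 difference of tested members was 0.94, and that of all tested genes was −0.13. Values of the cultures and of whole DG did not overlap for 31 of 57 members (54.4%), against 83.6% of all tested genes. The median SD of log2(CPM + 0.5) over the 4 cultures was 0.50 for tested members and 0.26 for all tested genes. This comparison includes M1, and genes were not matched for abundance. Without M1, 19 of 55 tested members were higher and 12 lower, with a median log2 difference of 0.47. Of all 17997 genes tested without M1, 6418 were higher and 7620 lower, with a median of −0.16. By role, 6 of 18 effectors were then higher and 5 lower, and 4 of 15 class I chains were higher and 4 lower. Of 9 transcription factors 2 were lower, and receptors, antigen processing genes and class II genes kept their counts without M1. The further 4 called lower without it were H2-T23 (log2 −1.59, adjusted p = 0.00423), Ifi27l2a (−1.59, adjusted p = 0.00861), Ifit3b (−2.59, adjusted p = 0.00297) and Stat2 (−0.87, adjusted p = 0.0165). Over their alternatives the adjusted p ranged between 0.00168 and 0.977 for H2-T23, between 0.00861 and 0.337 for Ifi27l2a, between 0.00297 and 1.00 for Ifit3b and between 0.0165 and 0.922 for Stat2, and with length and GC trends removed H2-T23, Ifit3b and Stat2 turned sign.

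**Figure D2:**
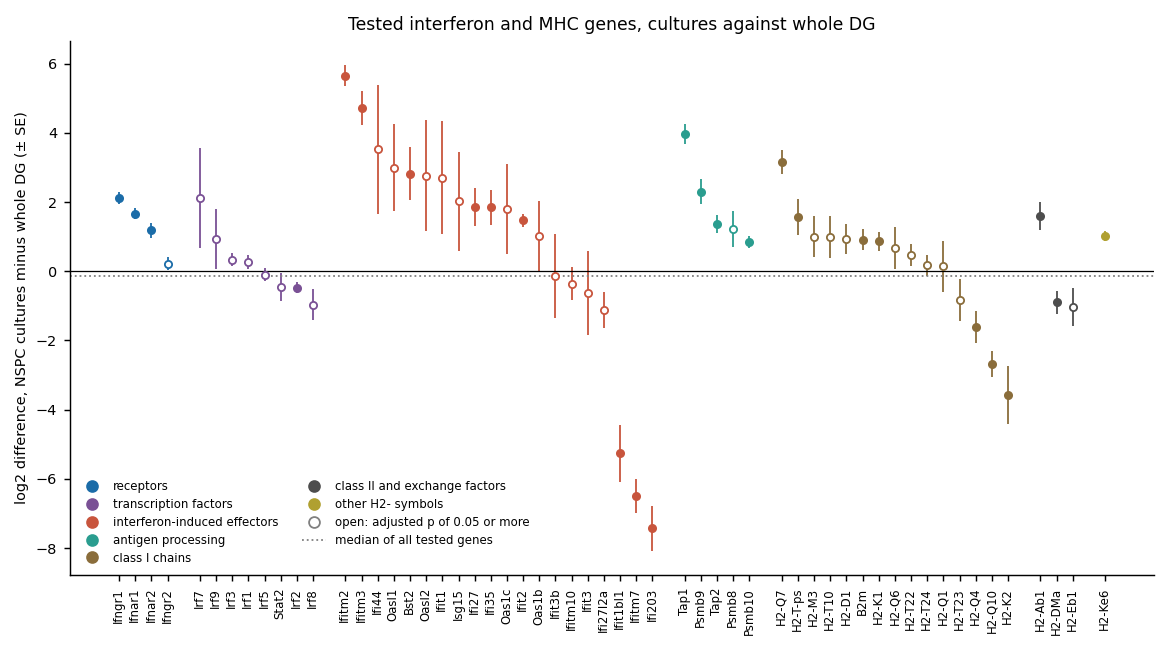
Log2 difference (cultures minus whole DG, y axis, ± SE) of tested members (x axis), coloured by role and filled where the adjusted p was under 0.05. The points run between 5.65 for Ifitm2 and −7.43 for Ifi203, and transcription factors lie nearest to 0.

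Of the 4 receptor genes, 3 were higher in the cultures, with little spread. The share called was 75%, near the 77.3% of all tested genes. Values did not overlap between groups for 3 of the 4, against 83.6% of all tested genes. Ifngr1, the ligand-binding chain of the interferon gamma receptor, had 46.8, 53.0, 52.5 and 54.0 CPM in cultures F1, F2, M1 and M2, against 13 and 10.8 CPM in whole DG F1 and M2. All cultures lay above both whole DG libraries (log2 2.12, SE 0.16, adjusted p = 7.69e-06). Ifnar1, a chain of the type I receptor, had 124, 153, 124 and 122 CPM in the same cultures, against 39.5 and 42.9 CPM in whole DG. Its values did not overlap between the groups either (log2 1.67, SE 0.15, adjusted p = 1.93e-05). Ifnar2, its partner chain, averaged 39.8 ± 8.40 CPM in cultures (SD, n = 4) and 17.4 ± 0.954 CPM in whole DG (SD, n = 2), a log2 difference of 1.19 (SE 0.22, adjusted p = 0.00113). The Ifnar2 call was lost in 1 of 16 alternatives (adjusted p = 0.123). Ifngr2, the signalling chain of the gamma receptor, averaged 68.4 ± 11.2 CPM in cultures and 58.5 ± 4.24 CPM in whole DG and overlapped between groups (log2 0.22, adjusted p = 0.268). The genes of Ifnar2, Ifnar1 and Ifngr2 lie within chr16:91372783-91565623 on the plus strand (GRCm38), and 2 of these 3 neighbours were called.

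Interferons themselves were near or at 0. Of 15 interferon genes, 13 had no count in any library, Ifna4 had 1 count in culture F2, and Ifnz had 1 count in F1 and 2 counts in M2. In M1 all 15 were at 0, and a count of 0 there allows up to 0.287 CPM for each gene (3 counts of the scaled library). Of 16 genes of kinases and other regulators of the pathway, 15 were tested, 7 were higher and 4 were lower. The share called was 73.3%, against 77.3% of all tested genes. Jak1, the kinase shared by both receptors, averaged 128 ± 8.05 CPM in cultures and 229 ± 11.7 CPM in whole DG (log2 −0.84, adjusted p = 2.19e-04), and Jak2, the other kinase of the gamma receptor, was lower too (log2 −2.71, adjusted p = 1.31e-05). Stat3, the most abundant gene of that list, averaged 292 ± 28.3 CPM in cultures and 52.9 ± 4.55 CPM in whole DG (log2 2.47, adjusted p = 2.39e-06).

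Of the 9 tested transcription factors only Irf2 passed the test, and it was lower (11.1% called, against 77.3% of all tested genes). Irf2, a repressor that competes with Irf1, had between 14.4 and 15.1 CPM in the cultures, against 21.6 and 19.9 CPM in whole DG (log2 −0.48, SE 0.16, adjusted p = 0.0234). The call was lost without whole DG F1 (adjusted p = 0.175) or without M2 (adjusted p = 0.0919), within a range of 0.00274 to 1.00 over its alternatives. Irf1, an activator induced by interferon gamma, averaged 16 ± 1.74 CPM in cultures and 13.2 ± 2.20 CPM in whole DG (log2 0.28, adjusted p = 0.233). Irf3, which responds to nucleic acid sensors, averaged 27.8 ± 3.49 CPM in cultures and 22.1 ± 4.21 CPM in whole DG (log2 0.33, adjusted p = 0.148). Irf5 (log2 −0.10, adjusted p = 0.625) and Irf8, a factor of microglia and other myeloid cells (log2 −0.97, adjusted p = 0.0752; 0.0256 without culture M2, the lowest of its alternatives, up to 0.713), did not pass either. Irf4 had 1 count in the cultures and 11 counts in whole DG and was not tested.

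Irf9, Irf7 and Stat2 had cultures on both sides of the tissue. Irf9 had 28.8, 9.28, 56.7 and 4.19 CPM in cultures F1, F2, M1 and M2, against 12.2 and 13.6 CPM in whole DG (log2 0.94, adjusted p = 0.343), and without M1 the log2 difference was 0.14. M1 and F1 lay above the tissue and F2 and M2 below it. Irf7, which amplifies the type I response, had 4.30, 1.21, 18.2 and 0 CPM in the cultures, against 1.55 and 1.16 CPM in whole DG (log2 2.12, adjusted p = 0.213), and without M1 the log2 difference was 0.48. Irf9 and Irf7 kept one order among the cultures, with M1 highest, then F1, F2 and M2. Stat2 had 17.6, 10.4, 34.9 and 15.8 CPM in the cultures, against 24.1 and 29.5 CPM in whole DG (log2 −0.45, adjusted p = 0.341).

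Of the 20 tested effectors, 15 were highest in M1, and several varied widely between cultures. Isg15 had 2.40, 0.347, 14.9 and 0.390 CPM in cultures F1, F2, M1 and M2, against 1.42 and 0.791 CPM in whole DG. M1 and F1 lay above the tissue and F2 and M2 below it (log2 2.02, SE 1.43, adjusted p = 0.225), and without M1 the log2 difference was −0.04. Ifit1, whose promoter cores are shown above, had 4.38, 0.433, 21.5 and 0.0976 CPM in the cultures, against 1.23 and 0.791 CPM in whole DG. The value in M2 rests on 1 count, and the log2 difference was 2.70 (adjusted p = 0.162), or 0.74 without M1. Oasl2, an antiviral protein of the oligoadenylate synthetase family, had 9.01, 0.694, 36.0 and 0.293 CPM in the cultures, against 1.23 and 2.13 CPM in whole DG (log2 2.76, adjusted p = 0.148), a log2 difference of 1.01 without M1. Ifi44 had 2.15, 0.0867, 9.74 and 0 CPM in the cultures, against 0.194 and 0.304 CPM in whole DG (log2 3.52, adjusted p = 0.116; 0.0462 without culture F2 and 0.0490 without M2, of alternatives up to 0.330). Without M1 its counts were too low to be tested. These examples were chosen after their values were seen.

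**Figure D3:**
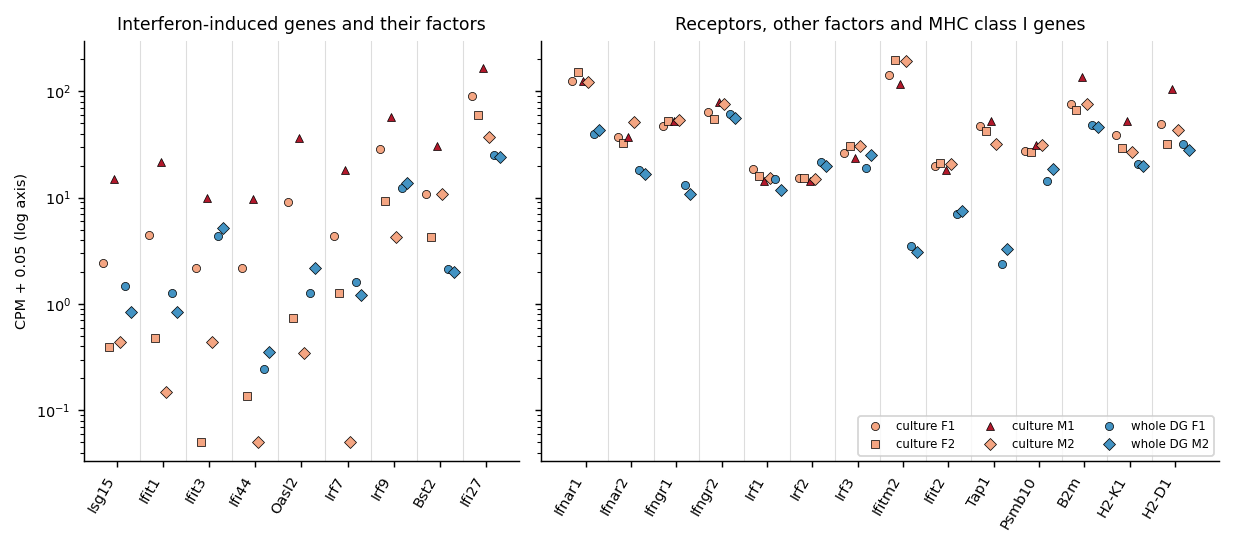
CPM plus 0.05 (y axis, log scale) in each library, 4 cultures at the left and 2 whole DG libraries at the right of each gene (x axis). In the left panel M1, the dark triangle, is at the top of each gene, at 14.9 CPM for Isg15 and 56.7 CPM for Irf9. The genes of that panel were picked, so this is no separate result. The effectors Ifitm2 and Ifit2, for which M1 was the lowest culture, are in the right panel. There the receptor genes lie close together across cultures.

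M1 was also highest for most tested genes in a list of 53 other interferon-induced genes. The symbol rule does not cover these, which include guanylate-binding proteins and Rsad2. M1 was the highest culture for 42 of its 44 tested genes (95.5%) and for 15 of 20 tested effectors (75.0%), against 27.8% of all tested genes. M1 came first and F1 second for 25 of the 44 (56.8%) and for 10 of the 20 effectors, against 9.49% of all tested genes. The list's most abundant gene, Lgals3bp, a secreted glycoprotein, had 85.7, 7.02, 185 and 20.3 CPM in the cultures, against 10.9 and 10.5 CPM in whole DG (log2 2.79, adjusted p = 0.0564), a log2 difference of 1.83 without M1. Gbp3, a guanylate-binding protein, had 98.2, 27.0, 141 and 23.6 CPM in the cultures, against 2.00 and 2.31 CPM in whole DG, so that all cultures were above the tissue (log2 5.06, SE 0.94, adjusted p = 0.00128). Of the 44 genes, 18 were higher and 5 lower, and 16 of 40 were higher and 10 lower without M1. Of all 17997 genes tested without M1, 6418 were higher and 7620 lower. With M1, 52.3% of the 44 were called, against 77.3% of all tested genes. Microglia and macrophage markers summed to 49.6 CPM in M1, inside the range of the other cultures. M1 was the highest culture for 7 of the 17 tested markers (41.2%). M1 had the smallest total count of the 6 libraries. Which passage each culture had is not given in the labels. The parts of microglia and macrophages, of depth and of passage in the rank of M1 were not tested.

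**Figure D4:**
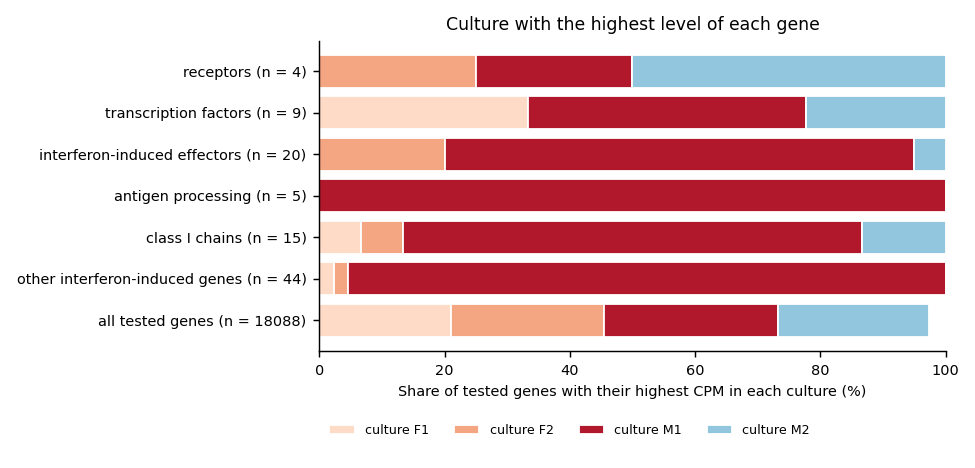
Share of tested genes (x axis, percent) whose highest CPM among the cultures was in F1, F2, M1 or M2, by gene group (y axis), with genes tied for highest left blank. M1 takes 95.5% of the other interferon-induced genes and 75.0% of the effectors, against 27.8% of all tested genes.

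Of the 20 tested effectors, 6 were higher and 3 were lower in the cultures (45% called, against 77.3% of all tested genes). Ifitm2 had 142, 197, 118 and 192 CPM in cultures F1, F2, M1 and M2, against 3.42 and 3.04 CPM in whole DG. Per kilobase of exon it was the most abundant tested member in the cultures, at 248 CPM, and it had the largest upward difference among them (log2 5.65, SE 0.31, adjusted p = 1.21e-06), and here M1 was the lowest culture. Ifitm3, its neighbour on chromosome 7 and likewise a block to virus entry, had 128, 146, 191 and 65.7 CPM in the cultures, against 5.94 and 4.14 CPM in whole DG (log2 4.72, SE 0.48, adjusted p = 3.82e-05). Ifit2, an RNA-binding antiviral protein, had 19.8, 21.2, 18 and 20.5 CPM in the cultures, against 6.91 and 7.42 CPM in whole DG, and no culture stood apart (log2 1.47, SE 0.19, adjusted p = 1.48e-04). Bst2 had 10.7, 4.25, 30.9 and 10.8 CPM in the cultures, against 2.07 and 1.95 CPM in whole DG (log2 2.81, SE 0.76, adjusted p = 0.00935), and its call was lost without whole DG F1 (adjusted p = 0.0595) or without M2 (adjusted p = 0.0646), of alternatives between 1.24e-04 and 0.0646. Without M1 its log2 difference was 2.11. Ifi27, a small interferon-induced protein, averaged 88.5 ± 56.8 CPM in cultures and 24.6 ± 1.08 CPM in whole DG (log2 1.85, adjusted p = 0.0145; 0.0742 without whole DG F1 and 0.0848 without M2, of alternatives between 7.55e-04 and 0.114). Ifi35, which binds the protein Nmi, was higher by 1.85 on the log2 scale (adjusted p = 0.00938; 0.0821 without whole DG M2, the highest of its alternatives, down to 0.00194).

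The 3 lower effectors were close to absent from the cultures. Ifitm7, a further member of the Ifitm family, had 0.248, 0.694, 0.573 and 0 CPM in the cultures, against 36.3 and 34.2 CPM in whole DG (log2 −6.49, SE 0.50, adjusted p = 7.75e-06). Ifi203, of the DNA-sensing Ifi200 family on chromosome 1, had 1 count in culture F2 and none in the others, against 6.00 and 5.11 CPM in whole DG (log2 −7.43, adjusted p = 1.58e-05). Ifit1bl1, an Ifit1 relative, had 2 counts in M1 and none in the other cultures, against 2.32 and 1.89 CPM in whole DG (log2 −5.26, adjusted p = 5.11e-04), and without M1 all cultures were at 0. The 3 called Ifitm genes thus differed in direction, and Ifitm2 and Ifitm7 each overlap another annotated gene. Isg20 had 16 counts in the cultures and 8 counts in whole DG and was not tested. Genes with near-identical copies (the Oas1, Ifit1 and Ifit3 groups and the Ifi200 genes) may share reads, which leaves their single values uncertain.

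Among sensors of nucleic acids that feed this response, a list of 19 genes, 8 of 16 tested were higher and 3 were lower. Thus 68.8% of them were called, against 77.3% of all tested genes. Tmem173, the adaptor STING, had 208, 144, 144 and 188 CPM in the cultures, against 2.45 and 2.74 CPM in whole DG (log2 6.04, SE 0.26, adjusted p = 4.16e-07). Adar, the RNA-editing enzyme that marks RNA as self, averaged 43.9 ± 13.4 CPM in cultures and 233 ± 0.100 CPM in whole DG (log2 −2.41, adjusted p = 4.06e-05).

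Of the 5 antigen processing genes, 4 were higher in the cultures and Psmb8 did not pass. The share called was 80%, near the 77.3% of all tested genes. Tap1 had 46.7, 42.0, 52.2 and 31.8 CPM in cultures F1, F2, M1 and M2, against 2.32 and 3.22 CPM in whole DG. All cultures lay far above the tissue (log2 3.95, SE 0.29, adjusted p = 5.78e-06), and its value without M1 was 3.86. Tap2, its partner in the transporter, had 23.1, 23.1, 37.5 and 23.0 CPM in the cultures, against 10.1 and 10.8 CPM in whole DG (log2 1.36, SE 0.26, adjusted p = 0.00157). Psmb9 averaged 5.14 ± 1.23 CPM in cultures and 1.03 ± 0.000771 CPM in whole DG (log2 2.30, adjusted p = 5.53e-04). Tap1 and Psmb9 lie head to head on chromosome 17 and overlap at their starts (Tap1 from 34187553, plus strand, and Psmb9 up to 34187764, minus strand, GRCm38), so that reads there cannot be assigned without strand.

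The inducible proteasome subunits were set against the constitutive ones that they replace, per exon length. Psmb10 stood at 39.2%, 38.8%, 53.2% and 51.2% of Psmb7 in cultures F1, F2, M1 and M2, against 23.1% and 30.6% in whole DG. Psmb8 stood at 0.511%, 0.754%, 1.98% and 0.511% of Psmb5 in the cultures, against 0.712% and 0.690% in whole DG. Psmb9 stood at 0.668%, 0.651%, 1.09% and 0.519% of Psmb6 in the cultures, against 0.632% and 0.706% in whole DG. The ratio of Psmb10 lay above whole DG in every culture, while those of Psmb8 and Psmb9 overlapped the tissue and were highest in M1. Psmb10 itself rose by 0.84 on the log2 scale (SE 0.18, adjusted p = 0.00301), and Psmb8 had a log2 difference of 1.22 (adjusted p = 0.0646; 0.0472 without culture F1 and 0.0409 without M2, of alternatives between 0.0107 and 0.273). Of 19 other proteasome genes, 15 were higher and 1 lower, among them Psmb6 (log2 2.21, adjusted p = 3.71e-06) and Psmb1 (log2 1.63, adjusted p = 7.66e-06), both constitutive core subunits. Among these 19, 84.2% were called, against 77.3% of all tested genes.

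Of 15 tested class I genes, 4 were higher and 3 lower in the cultures (46.7% called, against 77.3% of all tested genes). B2m had 76.4, 66.0, 137 and 76.3 CPM in cultures F1, F2, M1 and M2, against 48.0 and 46.1 CPM in whole DG. Every culture was above the tissue (log2 0.92, SE 0.29, adjusted p = 0.0195), and without M1 the log2 difference was 0.64. H2-K1, a classical class I heavy chain, had 38.4, 29.5, 52.5 and 26.6 CPM in the cultures, against 20.9 and 19.6 CPM in whole DG (log2 0.86, SE 0.28, adjusted p = 0.0216). Without whole DG F1 or without M2 neither call held (B2m adjusted p = 0.0850 and 0.103, H2-K1 adjusted p = 0.0861 and 0.113). Over all alternatives the adjusted p ranged between 0.00162 and 0.515 for B2m and between 7.54e-04 and 0.605 for H2-K1. H2-D1, the other classical heavy chain, had 48.7, 31.6, 105 and 43.1 CPM in the cultures, against 31.6 and 28.3 CPM in whole DG (log2 0.93, SE 0.44, adjusted p = 0.0851; 0.0230 without culture F2, of alternatives between 0.00499 and 0.478). Per kilobase of exon in the cultures, B2m stood at 103 CPM, H2-D1 at 22.2 CPM and H2-K1 at 12.5 CPM.

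H2-Q7, a non-classical class I gene, had 4.55, 5.03, 5.54 and 5.46 CPM in the cultures, against 0.516 and 0.608 CPM in whole DG. The cultures were close together and all above the tissue (log2 3.17, SE 0.35, adjusted p = 5.95e-05). H2-Q10 went the other way, with 0.579, 0.780, 1.24 and 0.683 CPM in the cultures, against 5.49 and 5.11 CPM in whole DG (log2 −2.68, SE 0.37, adjusted p = 2.24e-04). H2-Q4 and H2-K2 were lower too, by log2 −1.60 (adjusted p = 0.0121; 0.131 without whole DG F1 and 0.0738 without M2, of alternatives between 0.00570 and 0.157) and −3.57 (adjusted p = 0.00454; 0.0575 without whole DG M2, the highest of its alternatives, down to 0.00157). Without M1 the log2 difference of H2-K2 was −4.93. H2-T-ps, a pseudogene, was higher by 1.57 (adjusted p = 0.0237). H2-M5 had 0 counts in the cultures and 29 counts in whole DG, at least 13.4-fold lower at a floor of 3 counts over the cultures, and was not tested. Some H2-Q genes, and some H2-T genes, are close copies within their own group on chromosome 17, where 49 of the 114 members lie. Reads may be divided among such copies. In a list of 23 genes for class I loading and MHC regulation, 11 of 22 tested were higher and 6 lower. This list had 77.3% of its tested genes called, the same share as over all tested genes. The chaperones Canx (log2 1.73, adjusted p = 1.06e-05) and Hspa5 (log2 1.81, adjusted p = 1.89e-05) had its highest mean CPM over the 6 libraries, not scaled by length, while in single cells Calr gave more UMIs than either.

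Of 12 class II genes, 3 were tested. H2-Ab1, a class II beta chain, had 2.15, 2.17, 2.96 and 2.24 CPM in the cultures, against 0.646 and 0.912 CPM in whole DG (log2 1.60, SE 0.40, adjusted p = 0.00629; 0.0836 without whole DG F1, the highest of its alternatives, down to 3.12e-04). H2-DMa, which helps to load class II, averaged 7.64 ± 2.52 CPM in cultures and 14.3 ± 1.17 CPM in whole DG (log2 −0.90, adjusted p = 0.0301). Its call was lost without culture F1 (adjusted p = 0.0674), without whole DG F1 (adjusted p = 0.0932) or without whole DG M2 (adjusted p = 0.156), of alternatives between 0.0121 and 0.882. H2-Eb1 averaged 0.694 ± 0.450 CPM in cultures and 1.41 ± 0.0736 CPM in whole DG (log2 −1.03, adjusted p = 0.116; 0.0123 without culture M2, the lowest of its alternatives, up to 0.463). H2-Aa, the alpha chain that pairs with H2-Ab1, had 2 counts in the cultures and 25 counts in whole DG and was not tested. Cd74, the invariant chain (log2 −4.01, adjusted p = 3.45e-04), Ciita, the master activator of class II (log2 −3.41, adjusted p = 0.00409), and Ctss, a class II processing protease (log2 −9.74, adjusted p = 2.89e-07), were lower together with the microglia and macrophage markers, whose part in these values was not tested. H2-Ke6 had 59.7, 60.6, 54.6 and 63.8 CPM in the cultures, against 26.7 and 32.4 CPM in whole DG (log2 1.01, SE 0.15, adjusted p = 3.19e-04).

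Between female and male cultures, 0 of 49 tested members passed (edgeR quasi-likelihood test, 2 against 2 cultures), against 0.0264% of 15140 genes tested. At an unadjusted p under 0.05 there were 3 members, and DESeq2 likewise called 0, with 4 at an unadjusted p under 0.05. That unadjusted count was 8 with the replicate number as a block and 13 of 95 with no filter on low counts. It was 4 of 55 without F1, 1 of 56 without F2, 7 of 50 without M1 and 19 of 54 without M2. The 3 were Ifitm10 (6.48 CPM in female and 15.6 CPM in male cultures), H2-Q6 (0.758 CPM in female and 2.08 CPM in male cultures) and Ifit3b (0.585 CPM in female and 6.02 CPM in male cultures). With M1 and M2 at opposite ends for Irf7 and Irf9, the male cultures enclosed both female cultures in these genes.

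In single cells, 14912 cells of the pooled cultures held 71988 UMIs of members among 62412600 UMIs, in the 6 clusters (0 to 5) named in the deposited table. With 1 library there is no test, and intervals are exact and cover counting error only. Ifitm2 gave 24099 UMIs in 72.2% of cells and Ifitm3 gave 15391 UMIs in 49.6% of cells, together more than the other 50 members. H2-Ke6 followed with 4634 UMIs in 26.2% of cells, B2m with 4368 UMIs in 24.9%, Psmb10 with 2893 UMIs in 17.5% and H2-K1 with 2700 UMIs in 16%. Ifi27 (2275 UMIs), Ifngr2 (1788 UMIs), Irf2 (1643 UMIs) and Ifnar2 (1348 UMIs) completed the 10 most counted members. In all, 9 members were found in over 10% of cells and 23 in under 1%. The cells are one cultured type, so a cell type lacking these genes, against which free RNA could be judged, was not at hand.

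Among the 10 most counted members, the highest cluster stood at 1.18 (Irf2) to 1.59 times (Psmb10) the lowest. After thinning, the ratio for Psmb10 was 1.73. Ifitm2 ranged between 450 UMIs per 1000000 in cluster 0 (95% interval 439 to 460) and 334 in cluster 4 (321 to 347). Its share of cells was 73.0% in cluster 0 and 76.4% in cluster 4, and 54.7% and 46.0% after thinning every cell to 2000 UMIs, since median depth was 3749 UMIs in cluster 0 and 5270.5 in cluster 4. Ifitm3 ranged between 298 in cluster 0 (289 to 307) and 221 in cluster 2 (214 to 229). B2m ranged between 77.6 in cluster 0 (73.2 to 82.2) and 65.4 in cluster 5 (58.2 to 73.3). The interval of cluster 0 lay above those of cluster 1 (61.1 to 70.4), cluster 2 (62.6 to 70.8) and cluster 4 (60.1 to 72.0), and overlapped those of clusters 3 and 5. Psmb10 ranged between 56.5 in cluster 5 (49.8 to 63.8) and 35.4 in cluster 4 (31.3 to 40.0). H2-D1 was alike in all clusters, between 16.2 in cluster 2 and 15.2 in cluster 4.

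A few scarce members differed more between clusters. Ifit2 stood at 8.26 UMIs per 1000000 in cluster 2 (6.89 to 9.82), against 2.25 in cluster 0 (1.56 to 3.14) and 1.97 in cluster 5 (0.900 to 3.74). H2-Q7 stood at 8.08 in cluster 4 (6.17 to 10.4) and 7.87 in cluster 2 (6.54 to 9.40), against 3.04 in cluster 0 (2.23 to 4.06) and 1.31 in cluster 5 (0.482 to 2.86). After thinning it stood at 8.28 in cluster 2 and 5.60 in cluster 4. H2-Q4 was likewise highest in cluster 2, at 8.00 (6.65 to 9.54), against 2.38 in cluster 0 (1.67 to 3.30) and 1.97 in cluster 5 (0.900 to 3.74). H2-DMa ran the other way, at 9.13 in cluster 0 (7.67 to 10.8), against 3.87 in cluster 2 (2.95 to 4.98) and 3.37 in cluster 4 (2.18 to 4.97).

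**Figure D5:**
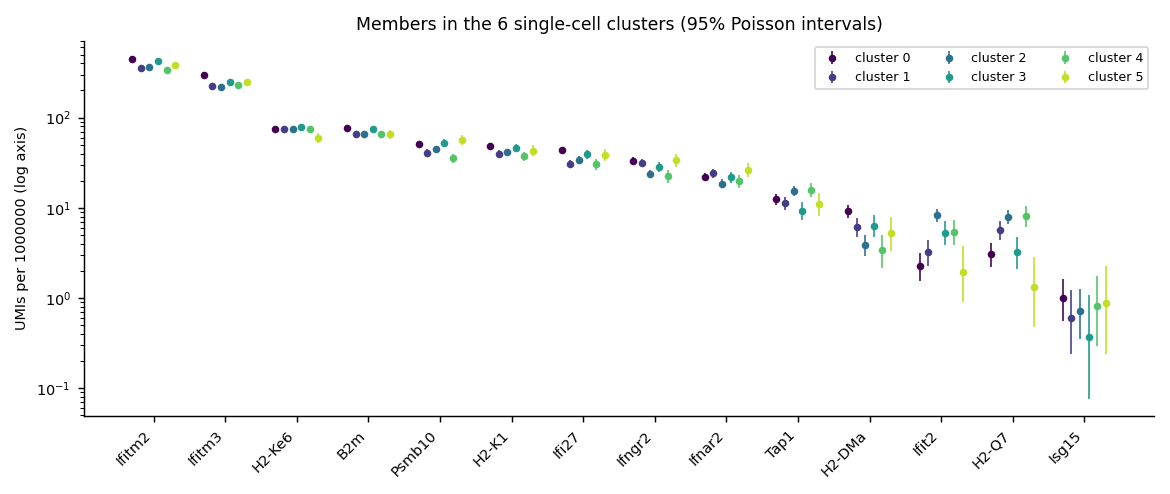
UMIs per 1000000 (y axis, log scale) of 14 members (x axis) in clusters 0 to 5, with exact Poisson 95% intervals. Abundant members such as Ifitm2 lie close together across clusters, while Ifit2 ranges between 8.26 in cluster 2 and 1.97 in cluster 5.

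Several interferon-induced genes that were highest in M1 in bulk were scarce in single cells. Isg15 gave 46 UMIs in 39 cells (0.262%), Ifit1 gave 7 UMIs and Irf7 gave 5 UMIs. Of the 39 cells, 36 held 1 Isg15 UMI, and 3 held 5, 3 and 2 UMIs. These 3 cells held 8, 7 and 8 UMIs of the other interferon-induced genes, a mean of 7.67, against 0.611 in cells with 1 Isg15 UMI and 0.481 in the 14873 cells with none. They lay in clusters 0, 0 and 2 and had 2822, 3587 and 4610 UMIs, against a median of 4048.5 over all cells. Rsad2, an antiviral enzyme, was found in all 3. The cells were chosen by their Isg15 counts after the data were seen, doublets were not removed, and 3 cells support no comparison beyond these values.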

How the data were processed

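The members and gene lists were chosen with earlier results of these data known. The bulk table holds raw counts per gene as deposited by the authors, and the single-cell values were deposited as a natural log: ln of (1 + UMIs per 10000 of the cell). CASAVA 1.8.2, HISAT2 2.0.6, Subread, featureCounts, Cell Ranger 3.1.0, Seurat 3.1.0 and the build GRCh38 are named in the submitters' processing notes, although the symbols are mouse symbols. No label or header states whether strand was used in counting or how shared reads were treated. Of the 57 tested members, 31 overlap another gene in GENCODE M21 (GRCm38).

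Counts were tested with edgeR 4.0.16 (R 4.3.3; TMM, default low-count filter, robust quasi-likelihood F test, Benjamini-Hochberg adjustment over all tested genes, threshold 0.05) in 4 cultures and 2 whole DG libraries, with group as the only term, and by sex within the cultures. The labels call the cultures separate, and whole DG has 1 animal of each sex. CPM use TMM library sizes. The same tests were also run on simulated counts with the same dispersion for every gene. That run does not cover genes that varied widely between cultures. The main tests did not pair same-numbered samples. Deviations of libraries named F1 and M2 correlated at r = 0.059 between cultures and whole DG, over 18088 genes. Those numbered 1 and 2 correlated at r = 0.044 between sexes. Correlations over all genes cannot show whether same-numbered samples share a preparation, which was not tested. Genes named are the 3 most abundant tested members of each role, the 6 largest called differences each way at 2 CPM or more, fixed receptor, factor and MHC genes, the 10 members with most UMIs, and the 2 most abundant genes of each list. Others were chosen after their values were seen. Some members enter the counts and medians and are not reported singly here.

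UMI counts were computed back from these logs, and 100% of 26000272 values lay within 0.01 of a whole number, and the 14912 barcodes are distinct. Clusters are the authors', no cell was removed, and no doublet caller was run. Promoter windows are from RefSeq. Intervals are 95% Poisson or Clopper-Pearson, and bulk reads have no molecular identifiers, so floors of 3 counts cover counting error only. Alternatives tried were other scalings, DESeq2 1.42.0, other filters, each library left out, a replicate block, whole DG counts thinned to culture depth, length and GC trends removed (mgcv 1.9.3), and a test against a fold above 2.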

Additional observations from a re-analysis of the deposited data

Results flagged for a closer look

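Within the 4 cultures, 11 of 57 tested members had a library whose gap to the nearest other culture exceeded Dixon's 95% critical value for 4 samples, when divided by the range. Chance flags about 1 in 20 groups of independent, normally distributed values, which CPM of genes that vary together need not be. A gene with counts in only 1 culture reaches a gap of 1 by construction. The share flagged over all tested genes was not computed, so no excess over it can be stated. For 8 of the 11, culture M1 was the high library: Tap2 (gap 0.991 of the range, 37.5 CPM), Ifi35 (0.973, 12.9 CPM), Ifit3b (0.942, 11.5 CPM), H2-Ab1 (0.883, 2.96 CPM), Isg15 (0.859, 14.9 CPM), B2m (0.853, 137 CPM), Psmb8 (0.830, 11.5 CPM) and Ifit1bl1 (1, from 2 counts). Culture F2 was high for Ifnar1 (0.913, 153 CPM) and for Ifi203 (1, from 1 count), and M2 was high for H2-Eb1 (0.888, 1.37 CPM).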

How the results depend on the processing

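The number of members called higher stayed within 1.5 times of 19 under other scalings, DESeq2 and other filters. It was 9, with 3 lower, among the 26 members that overlap no other gene, where fewer genes are counted, and 10, with 5 lower, in the test against a fold above 2. With no filter on low counts 14 members were lower, and 3 differed between sexes (Bst2, Ifitm10 and H2-D1). Leaving out 1 library gave 13 to 22 members higher, 5 to 12 lower and a median log2 difference of 0.47 to 1.04, with 5 lower without whole DG M2, and 0 members called between sexes. Removing length and GC trends shifted the median of all genes to 0.61 and that of members to 1.71, while upper quartile factors put the median of all genes at 0.05. Under the first, log2 differences turned sign for H2-DMa (0.0564), Irf2 (0.366), Irf5 (0.890), Irf8 (0.189), Stat2 (0.586), Ifit3b (0.0575) and H2-T23 (0.0206), of which all but Irf5 lay below the shifted median. Upper quartile factors put Ifit3b at 0.0557 and Irf5 at 0.0751. Leaving out 1 library gave Ifit3b between −2.59 (without culture M1) and 0.253 (without F2), Irf5 between −0.256 and 0.0593, and Isg15 between −0.0399 (without M1) and 2.49. In the F1 and M2 libraries of each group, the replicate block gave 19 members higher and 11 lower, against 19 and 12 without the block (chosen after seeing the data), with medians of 0.39 and 0.41, and Irf7 (−0.0265) and Irf9 (−0.0478) turned sign under the block. The block by number called 0 members between sexes. The cause of these changes was not tested. Over 48 members named or examined, 760 gene and setting pairs gave 664 with the same call and direction, 41 calls lost, 38 gained and 17 turned. Thinning each cell to 2000 UMIs put the share of cells with Ifitm2 at 50.1%, against 72.2%, by its construction. The ISRE share upstream of the start was 25.2%. Depth limits what can be said of the 57 members that were not tested and of the interferon genes.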
